A study of Homo sapiens with 10 samples.

Results

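The genes described here are 38 genes of glycolysis and of the cell's response to low oxygen, measured in 2 head and neck cancer (HNC) cell lines after transfection with microRNA-7 (miR-7). They were chosen by name, from what the genes are known to do, but with earlier results of these data known. All probes that the arrays hold for them were followed. The set comprises 17 glycolytic enzymes, 14 target genes of the hypoxia-inducible factor (HIF), 4 regulators of glycolytic flux, 2 transporters and HIF1A itself. Of the 38 genes, 36 had a named probe on each array type, 34 were tested in HN5 among 9549 genes and 35 in FaDu among 9997 genes. CA9 and SLC16A3 lacked a named probe and are left out, MXI1 was not detected in either line and EGLN3 was not detected in HN5.

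HN5 and FaDu are established HNC lines, and the study compared miR-7 with a negative control precursor, miR-NC, to find the transcripts that miR-7 lowers. Total RNA was taken 24 h after transfection with either precursor and hybridised to Illumina BeadChips. For HN5 each precursor had 2 arrays, and for FaDu each had 3, as labelled. All groups were transfected cells, none was kept at low oxygen according to the sources used here, and the labels number the arrays of a group as replicates.

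Glycolysis converts glucose to pyruvate through a chain of cytosolic enzymes, and lactate dehydrogenase then turns pyruvate into lactate. HIF is a transcription factor made of an oxygen-controlled alpha subunit, such as the product of HIF1A, and a stable beta subunit. In normal oxygen the prolyl hydroxylases EGLN1 and EGLN3 mark the alpha subunit for destruction by VHL, while in low oxygen HIF binds a short DNA element and switches on glycolytic enzymes together with genes for blood vessel growth, matrix, mitophagy and its own hydroxylases. Squamous tumors of the head and neck are often hypoxic.

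The sequence of mature hsa-miR-7-5p, credited to RefSeq on GRCh38.p14, is shown because it is the agent under test, with its seed (bases 2 to 8) in capitals. It is encoded, among other places, by MIR7-1 on the minus strand at chr9:83969811-83969834. No search of the members' transcripts for this seed was made, since their sequences were not used here.
hsa-miR-7-5p: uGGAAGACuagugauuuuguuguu

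The intensities, corrected for background and quantile-normalized line by line, are on a log2 scale, so all differences given are log2 values of miR-7 minus miR-NC, with the standard error (SE) of the limma fit. Each gene is represented by its brightest detected probe, and a gene is called where the p-value, adjusted by the Benjamini-Hochberg method over all genes tested in the line, is under 0.05. Levels are those of single probes and are not compared between genes or between lines.

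Before the results, the labels and arrays were checked. EGFR, the receptor followed by the study, had a mean log2 intensity of 12.1 with miR-7 and 13.7 with miR-NC in HN5 (3.18-fold lower, adjusted p = 0.0492, limma). In FaDu, EGFR was 2.98-fold higher in the arrays labelled miR-7. The study describes the opposite direction for FaDu, and all FaDu values below follow the labels. If the FaDu groups were exchanged, every FaDu direction below would turn, so that 12 members would be called higher and 3 lower and the gap of -0.46 between HIF targets and enzymes would be 0.46. The change with miR-7 differed between lines for 15.4% of the 10566 probes shared by both array types, and for 0.265% with the FaDu sign turned. Whether the FaDu groups were exchanged was not tested. Median intensities were 114.5 to 158.5 on the HN5 arrays and 114.4 to 148.9 on the FaDu arrays. In HN5, miR-7 replicate 2 stood apart, with correlations of 0.909 to 0.928 with the other arrays against 0.987 between the miR-NC arrays. FaDu arrays correlated at 0.994 to 0.996 within a group and at 0.972 to 0.974 between groups. All 6 squamous epithelium markers with a named probe were detected on every array of both lines.

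In FaDu, most HIF targets were lower in the arrays labelled miR-7 and most glycolytic enzymes were close to the control. Of the 35 members tested, 12 were called lower and 3 higher, while 21.8% of all 9997 genes were called lower and 20.0% higher. HIF targets gave 7 of the lower calls among 12 tested, with a median difference of -0.46, and the enzymes 3 lower calls and 1 higher among 17, with a median of -0.01. The median over all genes was -0.03. Of the 3 higher calls, that of EGLN3 came from a probe that entered the test only through the group where it is high. The RNA is that of whole cultures, so fewer cells that express a gene and less RNA per cell cannot be told apart. With the thresholds of the study, an unadjusted p under 0.05 and a change of at least 1.5-fold, 3 members were lower and 2 higher, against 5.31% and 7.28% of all genes. Intensities of both groups did not overlap for 13 members on the lower side and 4 on the higher, against 28.5% and 25.0% of all genes.

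**Figure D1:**
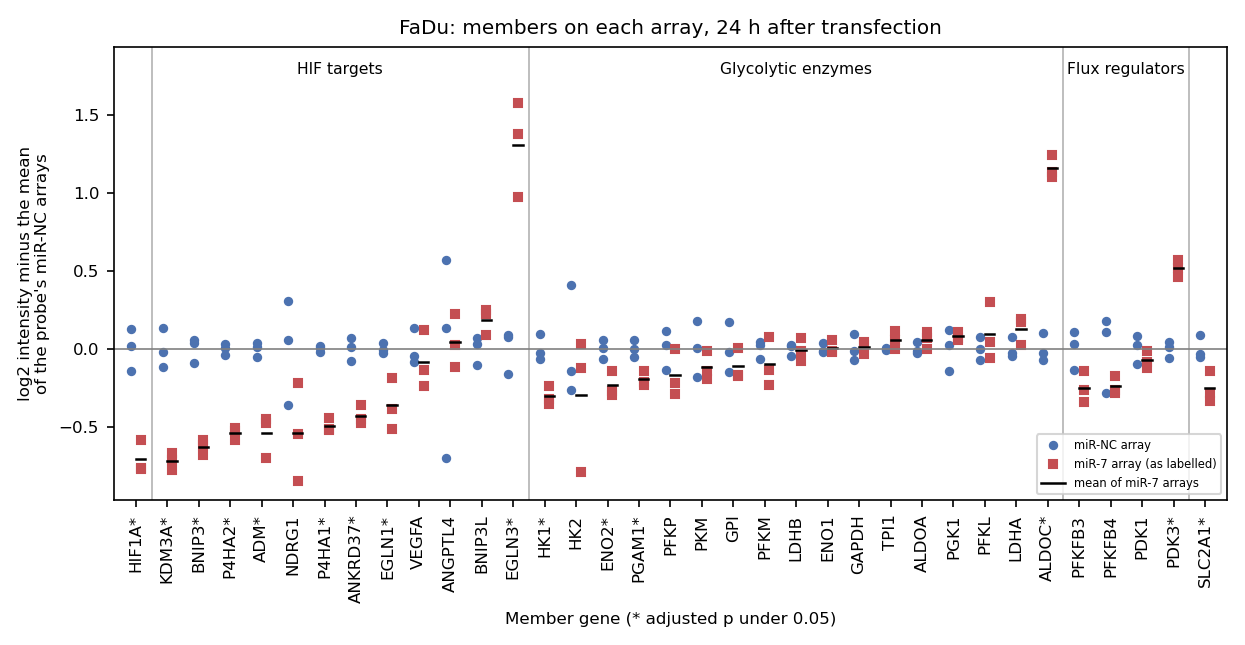
Log2 intensity of each member on each FaDu array, minus the mean of the same probe's 3 miR-NC arrays (vertical axis), with 1 column per gene grouped by list. Circles are miR-NC arrays, squares are arrays labelled miR-7, and bars are the means of the squares. The 3 squares of HIF1A, KDM3A, BNIP3 and P4HA2 lie below all their circles, those of EGLN3, ALDOC and PDK3 lie above, and GAPDH, ENO1 and LDHB are mixed around 0.

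HIF1A (chromosome 14, 61695513 to 61748258, GRCh38.p14) encodes the oxygen-controlled subunit. Its log2 intensity was 9.72, 9.60 and 9.45 on the FaDu miR-NC arrays and 9.01, 8.82 and 8.82 on the arrays labelled miR-7. All 3 miR-7 arrays were below all 3 controls, and the level fell by 0.71 (SE 0.0919, adjusted p = 0.000474, limma). The other probes of HIF1A gave -0.63 and -0.57, and each was called in the fit over all probes.

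Among the targets, KDM3A (chromosome 2, 86437044 to 86492716), a demethylase of histone H3, had the lowest value. The miR-NC arrays read 8.24, 7.99 and 8.09 and the arrays labelled miR-7 read 7.40, 7.33 and 7.44, a fall of 0.72 (SE 0.0819, adjusted p = 0.000229). BNIP3 (chromosome 10, 131967684 to 131981923), a mitochondrial outer membrane protein that recruits the mitophagy machinery, read 10.57, 10.72 and 10.70 with miR-NC and 10.08, 9.98 and 10.04 with miR-7. It fell by 0.63 (SE 0.0718, adjusted p = 0.000235), and with KDM3A and HIF1A it was one of the 3 members lower by the thresholds of the study.

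P4HA1 and P4HA2 encode the catalytic subunits of collagen prolyl 4-hydroxylase, which stabilises the collagen helix. P4HA1 (chromosome 10, 73007217 to 73096866) read 9.51, 9.53 and 9.55 with miR-NC and 9.08, 9.01 and 9.01 with miR-7, and fell by 0.50 (SE 0.0638). P4HA2 (chromosome 5, 132190147 to 132227853) read 9.12, 9.05 and 9.09 with miR-NC and 8.57, 8.50 and 8.56 with miR-7, and fell by 0.54 (SE 0.0648). In both genes the 2 groups were well apart, and adjusted p was 0.000458 for P4HA1 and 0.000301 for P4HA2 (limma). A second P4HA2 probe gave -0.50.

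ADM (chromosome 11, 10305073 to 10307397), the vasodilator peptide adrenomedullin, read 9.41, 9.47 and 9.49 with miR-NC against 8.76, 8.98 and 9.01 with miR-7, and fell by 0.54 (SE 0.0842, adjusted p = 0.00124). ANKRD37 (chromosome 4, 185396841 to 185400723), a small ankyrin repeat protein, fell by 0.43 from 6.12, 6.26 and 6.20 to 5.84, 5.74 and 5.72 (SE 0.0722, adjusted p = 0.00186). ANKRD37 was dim, and with the authors' own log2 values the difference was -0.10 with an adjusted p of 0.064. EGLN1 (chromosome 1, 231363756 to 231422287), the main HIF prolyl hydroxylase in normal oxygen, read 7.48, 7.46 and 7.52 with miR-NC and 7.10, 7.29 and 6.97 with miR-7, and fell by 0.36 (SE 0.0908, adjusted p = 0.0128).

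The related hydroxylase EGLN3 (chromosome 14, 33924227 to 33951074) was detected on all 3 FaDu arrays labelled miR-7, at 6.46, 6.26 and 5.86, and was not above background on any miR-NC array, where the same probe read 4.96, 4.72 and 4.97. Set against the lowest detected signals of those arrays, on the background-corrected scale, the level with miR-7 was at least 1.53-fold higher. A probe detected only in the group where it is high had to differ to pass the filter, so its call supports nothing further. The difference was 0.45 without background correction and 0.27 with the authors' own log2 values, so the bound does not hold on those scales.

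The remaining targets did not pass the test. NDRG1, a stress-induced protein, read 10.42, 9.75 and 10.17 with miR-NC and 9.89, 9.56 and 9.26 with miR-7, so the groups overlapped (-0.54, SE 0.194, adjusted p = 0.0539). VEGFA, the main growth factor of blood vessels, differed by -0.08 (SE 0.108), and BNIP3L, a mitophagy receptor related to BNIP3, by 0.19 (SE 0.0791, adjusted p = 0.0915). ANGPTL4, a secreted inhibitor of lipoprotein lipase, differed by 0.04 (SE 0.273) on its brightest probe, whose miR-NC arrays alone ranged from 6.10 to 7.37.

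DNA before a start site is shown for 4 targets that fell, KDM3A, BNIP3, P4HA1 and ANKRD37. It is also shown for the 2 members highest in FaDu, ALDOC and EGLN3. For KDM3A the window lies inside the span given above for the gene. Each stretch holds the 250 bases before a RefSeq start site on GRCh38.p14, and capitals mark the core of the hypoxia response element, searched as ACGTG and GCGTG on both strands, where matches on both strands can overlap. KDM3A lies on the plus strand (chr2:86441121-86441370), BNIP3 on the minus strand (chr10:131981924-131982173), P4HA1 on the minus strand (chr10:73096867-73097116), ANKRD37 on the plus strand (chr4:185396591-185396840), ALDOC on the minus strand (chr17:28576896-28577145) and EGLN3 on the minus strand (chr14:33951075-33951324).
KDM3A: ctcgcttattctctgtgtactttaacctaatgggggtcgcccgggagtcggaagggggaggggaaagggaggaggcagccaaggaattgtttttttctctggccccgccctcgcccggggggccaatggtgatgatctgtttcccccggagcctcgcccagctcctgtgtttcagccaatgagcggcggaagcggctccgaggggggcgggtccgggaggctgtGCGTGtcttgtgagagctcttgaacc
BNIP3: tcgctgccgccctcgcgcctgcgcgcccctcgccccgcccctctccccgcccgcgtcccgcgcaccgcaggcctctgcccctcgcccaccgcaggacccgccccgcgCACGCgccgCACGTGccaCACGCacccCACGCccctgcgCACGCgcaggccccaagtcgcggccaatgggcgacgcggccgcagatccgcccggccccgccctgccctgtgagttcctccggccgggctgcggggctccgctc
P4HA1: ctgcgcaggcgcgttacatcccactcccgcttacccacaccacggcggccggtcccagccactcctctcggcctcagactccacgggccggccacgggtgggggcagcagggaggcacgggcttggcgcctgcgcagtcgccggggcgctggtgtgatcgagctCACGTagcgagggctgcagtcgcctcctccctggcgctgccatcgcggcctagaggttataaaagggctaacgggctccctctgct
ANKRD37: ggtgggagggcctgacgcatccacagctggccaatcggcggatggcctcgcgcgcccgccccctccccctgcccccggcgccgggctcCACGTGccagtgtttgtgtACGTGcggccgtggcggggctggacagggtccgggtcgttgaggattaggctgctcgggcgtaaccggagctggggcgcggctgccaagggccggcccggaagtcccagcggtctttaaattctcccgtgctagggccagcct
ALDOC: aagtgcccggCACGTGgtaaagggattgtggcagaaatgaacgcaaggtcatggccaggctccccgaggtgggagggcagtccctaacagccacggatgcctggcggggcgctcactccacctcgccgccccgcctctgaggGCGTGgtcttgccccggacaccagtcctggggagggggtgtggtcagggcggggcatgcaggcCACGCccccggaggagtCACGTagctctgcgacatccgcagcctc
EGLN3: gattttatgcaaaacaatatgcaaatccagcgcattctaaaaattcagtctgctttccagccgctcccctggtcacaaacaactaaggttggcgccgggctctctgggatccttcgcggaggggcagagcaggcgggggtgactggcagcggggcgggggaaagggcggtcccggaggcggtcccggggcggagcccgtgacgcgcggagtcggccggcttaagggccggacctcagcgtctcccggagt

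The 6 matches of BNIP3 were clustered, ANKRD37 held 3 and ALDOC 5, KDM3A and P4HA1 held 1 each, and EGLN3 held none in this window. Over the 35 members with a promoter in the RefSeq table, 22 windows (62.9%) held a match, against 43.1% of 27305 promoters of the same length. The share was 8 of 12 among members called lower in FaDu, 2 of 3 among those called higher and 11 of 17 among those not called, so the presence of these letters was about as frequent in each. Of the lists, 8 of 11 HIF targets and 10 of 17 enzymes held a match.

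Among the glycolytic enzymes, the abundant steps of the pathway lay near 0 in FaDu. GAPDH, the reference gene of the study's RT-qPCR, read 13.28, 13.39 and 13.23 with miR-NC and 13.27, 13.32 and 13.35 with miR-7 (0.01, SE 0.0718), and its 3 probes ranged from -0.03 to 0.04. ENO1, the main enolase, differed by 0.01 (SE 0.0650), LDHB, the lactate dehydrogenase subunit that favours pyruvate formation, by -0.01 (SE 0.0696), TPI1 by 0.06 and PGK1 by 0.08. For GAPDH the 95% interval ran from -0.15 to 0.18.

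The aldolases that split fructose bisphosphate differed between isoforms. ALDOC (chromosome 17, 28573120 to 28576895), the isoform best known from brain, read 9.43, 9.30 and 9.26 with miR-NC and 10.58, 10.47 and 10.43 with miR-7, and rose by 1.16 (2.24-fold, SE 0.0772, adjusted p = 1.52e-05, limma). ALDOA, the isoform of muscle and most tumors, read 12.64, 12.58 and 12.58 with miR-NC and 12.71, 12.60 and 12.67 with miR-7, with overlapping groups (0.06, SE 0.0666). ALDOC was the only enzyme past the thresholds of the study in FaDu.

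Small decreases were called for 3 enzymes and for the glucose transporter SLC2A1. HK1, the hexokinase that phosphorylates glucose in most tissues, read 11.92, 11.76 and 11.80 with miR-NC and 11.59, 11.50 and 11.47 with miR-7, and fell by 0.31 (SE 0.0742, adjusted p = 0.0115). ENO2, the neuronal enolase, fell by 0.24 from 7.123, 7.071 and 7.003 to 6.925, 6.797 and 6.77 (adjusted p = 0.0323). PGAM1, phosphoglycerate mutase, fell by 0.20 from 11.90, 11.96 and 11.85 to 11.76, 11.67 and 11.69 (adjusted p = 0.0463).
SLC2A1 (GLUT1), which brings glucose into most tumor cells, read 11.80, 11.81 and 11.94 with miR-NC and 11.70, 11.51 and 11.56 with miR-7, and fell by 0.26 (SE 0.0788, adjusted p = 0.0309). The largest of these 4 changes, that of HK1, was 1.24-fold, and those of SLC2A1, ENO2 and PGAM1 missed the threshold in 8, 9 and 9 of 15 alternative settings.

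Of the flux regulators, PDK3 (chromosome X, 24465286 to 24550466), a kinase that inhibits pyruvate dehydrogenase, read 9.03, 9.10 and 9.13 with miR-NC and 9.55, 9.60 and 9.66 with miR-7, and rose by 0.52 (SE 0.0685, adjusted p = 0.00054). A second kept probe of PDK3 gave -0.10 (SE 0.0736), so the rise was seen on 1 of its 2 probes. PFKFB3, which makes the activator of phosphofructokinase, differed by -0.25 with non-overlapping groups (10.34, 10.09 and 10.26 against 10.09, 9.97 and 9.89) and an adjusted p of 0.0501. PFKFB4 gave -0.24 (SE 0.119) and PDK1 -0.07 (SE 0.0745).

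Over all probes, the members had 69 probes on the FaDu arrays, of which 54 passed the detection filter, and 17 were called lower and 4 higher. Of all 13093 kept probes, 21.0% were called lower and 18.8% higher. Several kept probes were available for 15 members, and the probes of 2 of them differed by more than 0.5. For ANGPTL4 the second probe gave -0.73 (SE 0.0806) and was called, while the brighter one gave 0.04, and for PDK3 the values were 0.52 and -0.10. HK2, the inducible hexokinase of many tumors, gave -0.46 (SE 0.0864, adjusted p = 0.00335 over all probes) on one probe and -0.29 (SE 0.234) on its brightest, where the array of miR-7 replicate 3 alone read 7.03 and the other 5 arrays 7.55 to 8.23. LDHA gave 0.13, 0.20 and 0.47 on its 3 probes, of which the last was called. That probe was dim, with uncorrected intensities of 147.7 to 219.6, against 8051.0 to 12588.8 and 6410.6 to 9908.6 for the others.

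**Figure D2:**
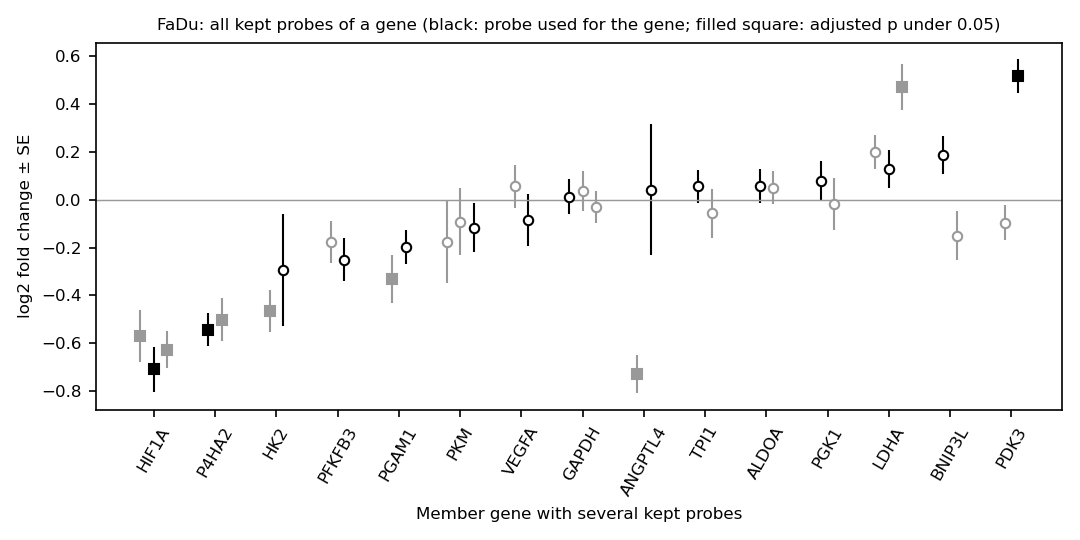
Log2 fold change with its standard error (vertical axis) of every kept FaDu probe, for the 15 members with several kept probes. Black symbols are the probes used for the gene, and filled squares have an adjusted p under 0.05 over all probes. The 3 HIF1A probes lie together between -0.71 and -0.57, while those of ANGPTL4 (0.04 and -0.73) and PDK3 (0.52 and -0.10) are apart.

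In HN5, no member passed the test in either direction, against 0.126% of all genes called lower and 0.178% called higher. The median over the members was -0.03, with -0.04 for the 17 enzymes and -0.01 for the 11 HIF targets tested, and 0.04 for all genes. The test was less sharp than in FaDu, since the median SE of the members was 0.215 in HN5 and 0.0791 in FaDu. By the thresholds of the study, no member was lower and 1 was higher, against 4.41% and 6.01% of all genes. Groups did not overlap for 7 members on the lower side and 6 on the higher, beside 20.5% and 27.7% of all genes.

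The 1 member past those thresholds was ANGPTL4 (chromosome 19, 8364155 to 8374370), which read 7.60 and 7.60 with miR-NC and 8.20 and 8.60 with miR-7 (0.80, SE 0.213, unadjusted p = 0.0108, adjusted p = 0.226, limma). Both miR-7 arrays were above both controls. HK2 read 8.53 and 8.08 with miR-NC and 8.73 and 8.90 with miR-7 (0.51, SE 0.229), and ENO2 differed by 0.48 (SE 0.266). BNIP3L read 9.88 and 9.74 with miR-NC and 9.48 and 8.86 with miR-7 (-0.64, SE 0.261, adjusted p = 0.383).

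LDHB (chromosome 12, 21635342 to 21657842) had the lowest value of the set in HN5, -1.38, with an SE of 0.892. It read 12.36 and 12.23 on the miR-NC arrays, 12.36 on miR-7 replicate 1 and 9.46 on miR-7 replicate 2. The whole difference thus came from 1 array, which differed by -2.86 (7.26-fold lower) from the mean of the other 3, and without it the difference was 0.07. On that array 196 of 9549 genes (2.05%) lay as far below the other arrays and 601 genes (6.29%) were at least 1 away in either direction. LDHB was the 1 member among them. In FaDu the same LDHB probe read 12.93 to 13.08 on all 6 arrays.

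**Figure D3:**
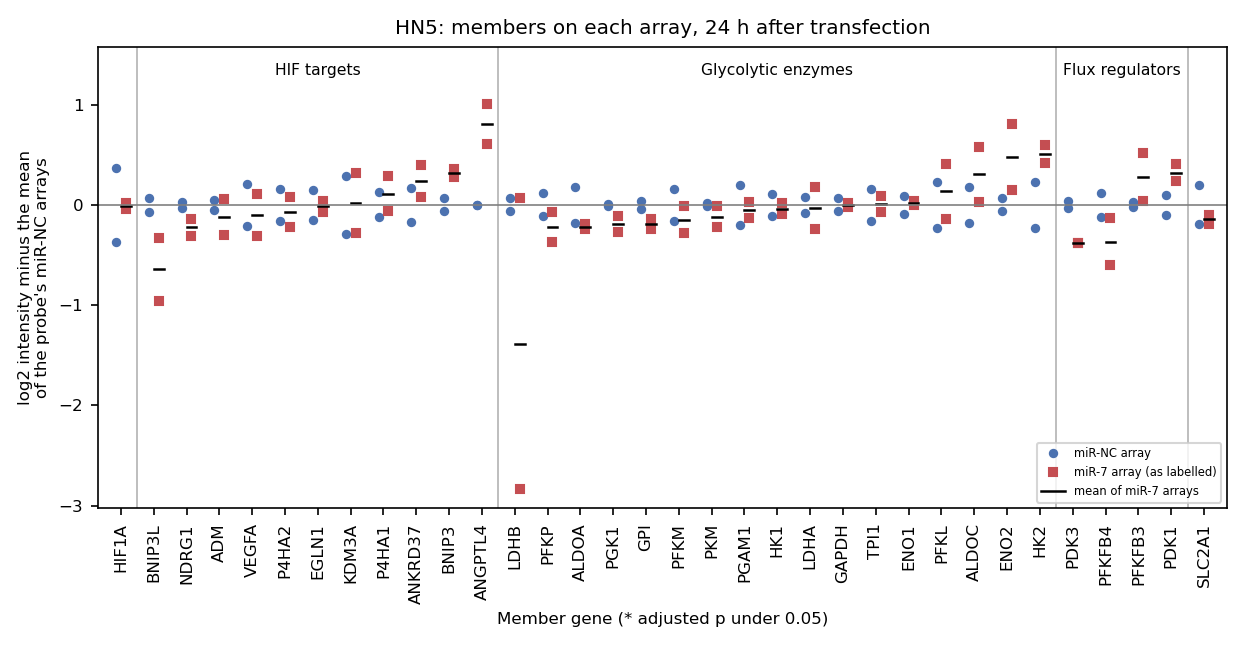
Log2 intensity of each member on each HN5 array, minus the mean of the same probe's 2 miR-NC arrays (vertical axis), with 1 column per gene grouped by list. Circles are miR-NC arrays, squares are miR-7 arrays, and bars are the means of the squares. No gene passed the adjusted test, both squares of ANGPTL4 lie above its circles, and the low LDHB mean (-1.38) comes from miR-7 replicate 2.

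HIF1A itself read 9.81 and 9.07 with miR-NC and 9.40 and 9.46 with miR-7 in HN5 (-0.01, SE 0.284), and the 95% interval, from -0.72 to 0.70, covered a change of the size measured in FaDu. KDM3A read 7.08 and 6.51 with miR-NC and 7.12 and 6.51 with miR-7 (0.02, SE 0.306). BNIP3 read 12.74 and 12.61 with miR-NC and 13.03 and 12.95 with miR-7, higher on both miR-7 arrays (0.32, SE 0.182, adjusted p = 0.487). GAPDH differed by 0.00 (SE 0.181), with arrays between 15.09 and 15.22.

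The difference between lines was tested for each member on a probe shared by both array types, as the FaDu value minus the HN5 value. Each line was measured on its own array type, so a difference between lines and one between array types cannot be told apart. Of 34 members, 4 differed, while 15.4% of 10566 shared probes did. This count follows the FaDu labels and, beside that share, is not read as a result about the members. With the FaDu sign turned, 0 of the 34 members differed and 0.265% of the shared probes did (limma). ANGPTL4 differed by -1.53 (0.80 in HN5 and -0.73 in FaDu, SE 0.229, adjusted p = 0.00676 from the moderated limma errors). HK2 differed by -0.97 (0.51 and -0.46, adjusted p = 0.0426), and BNIP3 by -0.95 (0.32 and -0.63, adjusted p = 0.0202). PDK3 differed by 0.90 (-0.38 and 0.52, adjusted p = 0.0221). ANGPTL4 and HK2 are represented in this comparison by a probe that is not their brightest in FaDu, and, with the FaDu sign turned, the differences were -0.08 for ANGPTL4, -0.04 for HK2, 0.31 for BNIP3 and -0.13 for PDK3. The 4 calls were lost when either HN5 miR-NC array was left out.

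For HIF1A the difference between lines was -0.70 (95% interval -1.42 to 0.03, adjusted p = 0.178), and for KDM3A -0.74 (adjusted p = 0.181). The lower levels of these genes in FaDu are therefore not shown to differ from HN5. GAPDH (-0.03), ENO1 (-0.01), PKM (0.00) and VEGFA (0.01) had the smallest differences, with intervals that reached at least 0.43 on either side of 0.

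**Figure D4:**
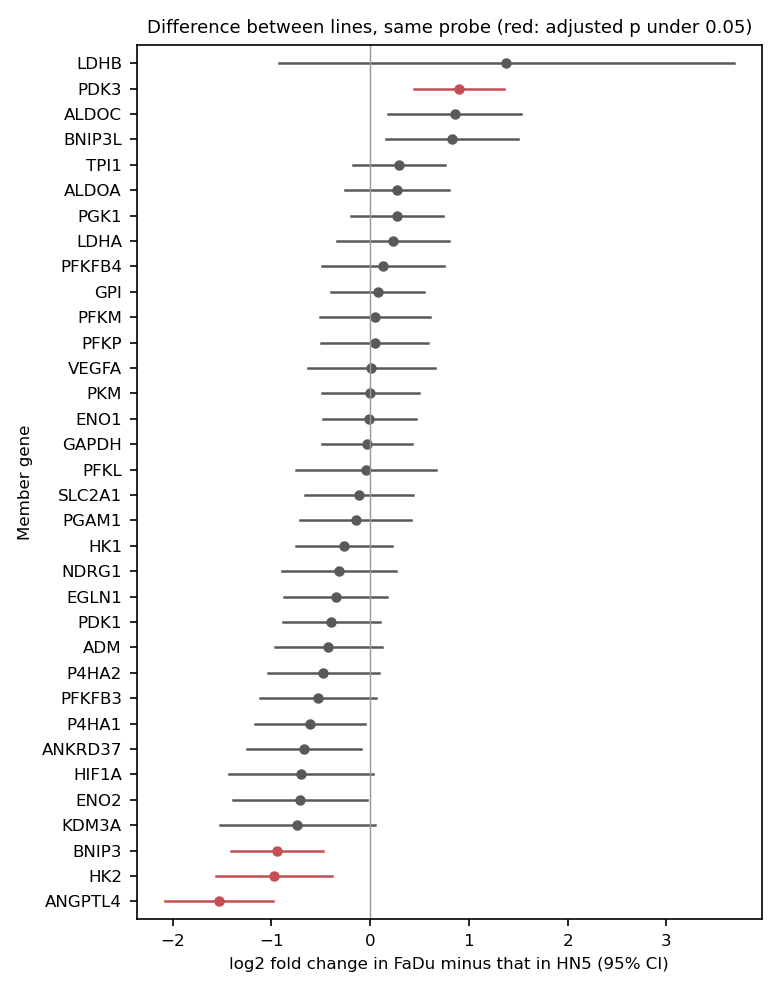
Difference of the log2 fold change in FaDu minus that in HN5 (horizontal axis) for 34 members on a shared probe, with its 95% confidence interval. The red members, ANGPTL4, HK2, BNIP3 and PDK3, have an adjusted p under 0.05 with FaDu as labelled, and the interval of LDHB, whose HN5 miR-7 arrays differed, is the widest.

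The contrast between both lists can be read array by array. In FaDu, the median of the 12 HIF targets, relative to the mean of the miR-NC arrays, was -0.37, -0.47 and -0.50 on the 3 arrays labelled miR-7 and lay between -0.03 and 0.04 on the miR-NC arrays. The median of the 17 enzymes was -0.02, -0.01 and 0.04 on the miR-7 arrays and between -0.03 and 0.04 on the controls. The gap between the list medians was -0.46 in FaDu and 0.02 in HN5, where the arrays with miR-7 gave target medians of 0.06 and -0.06 and enzyme medians of -0.09 and 0.02. The gap is a description of genes chosen with earlier results of these data known, with EGLN3 far on the other side of the targets.

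Genes of the same pathways outside the set were counted in the same fits. In HN5 none of 13 other glycolysis and pyruvate genes, 18 other HIF pathway genes and 14 genes of the citric acid cycle was called. In FaDu, 4 of 14 other glycolysis and pyruvate genes were lower and 3 higher, 5 of 18 other HIF pathway genes were lower and 1 higher, and 1 of 14 citric acid cycle genes was lower and 3 higher, beside the 21.8% of all genes called lower and 20.0% called higher. Their medians in FaDu were -0.14, -0.12 and -0.10.

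Those called in FaDu with a fitted change of at least 1.5-fold were 6 genes. SLC2A3 (GLUT3), a high-affinity glucose transporter, had a mean of 6.25 in the arrays labelled miR-7 and 7.80 with miR-NC, and fell by 1.55 (SE 0.109, adjusted p = 2.00e-05, limma). CCNG2, the unconventional cyclin G2, fell by 1.64 (SE 0.144) from 6.79 to 5.15, and was above background on only 1 of the 3 arrays labelled miR-7. VHL, which recognises hydroxylated HIF alpha for destruction, fell by 0.80 (SE 0.0893). ARNT2, a beta subunit that can pair with HIF alpha, was not above background on any array labelled miR-7. On the background-corrected scale it was at least 1.33-fold lower there. CCNG2 and ARNT2 entered the test only through miR-NC, the group where they are high, so their calls support nothing further. PLOD1, a collagen lysyl hydroxylase, rose by 0.59 (SE 0.0639), and SDHC, a membrane subunit of succinate dehydrogenase, rose by 0.73 (SE 0.0796). In HN5 the values were 0.62 for SLC2A3, 0.40 for CCNG2, 0.81 for VHL, -0.68 for PLOD1 and -0.25 for SDHC. None of these was called in HN5, each had the sign opposite to FaDu as labelled, and ARNT2 was not tested there.

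**Figure D5:**
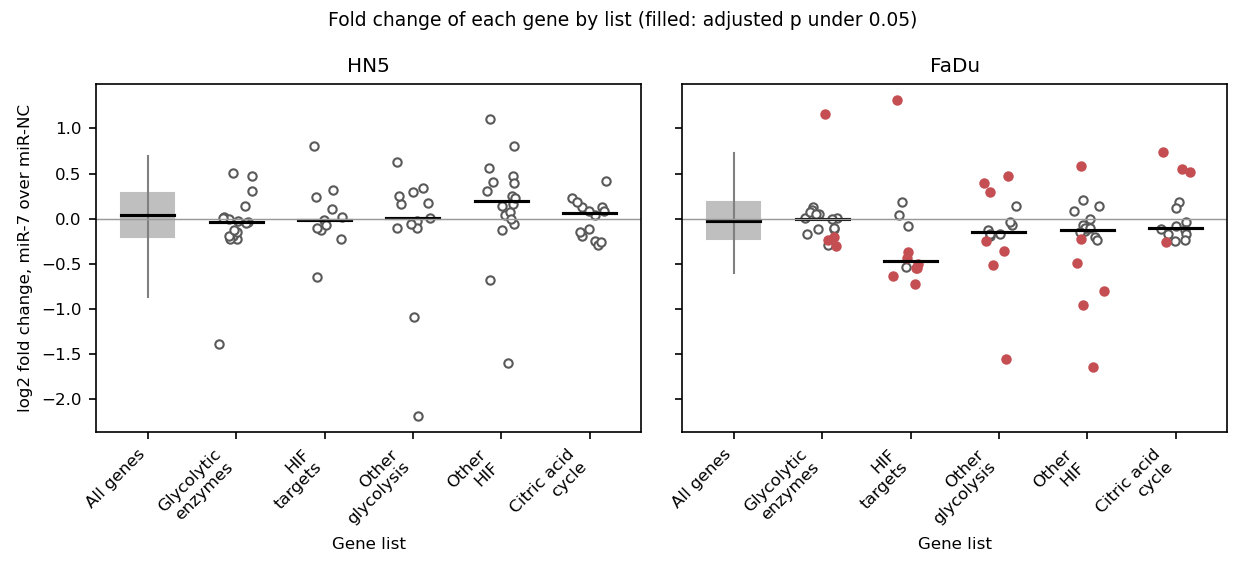
Log2 fold change of miR-7 over miR-NC (vertical axis) for each gene of the member lists and of 3 other pathway lists, in HN5 and FaDu. Filled circles have an adjusted p under 0.05, black bars are list medians, and the grey box and line span the 25th to 75th and the 5th to 95th percentile of all genes. In FaDu the HIF target median (-0.46) lies below those of the enzymes (-0.01) and of all genes (-0.03).

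Markers of other cell types were checked in the same arrays. In FaDu, all 6 fibroblast markers were undetected on every array, and CD14 and CDH5 were the only leukocyte and endothelial markers detected on all arrays. The summed normalized intensity of the leukocyte markers was 446.9 to 516.6 with miR-7 and 582.6 to 608.6 with miR-NC, that of the endothelial markers 173.5 to 179.7 and 114.5 to 121.7, and that of the squamous markers 15060 to 15390 and 13780 to 14780. The part of these shifts in the FaDu results was not tested. In HN5 the leukocyte sums were 679.2 to 762.9 with miR-7 and 606.6 to 617.8 with miR-NC, the endothelial sums 192.4 to 211.0 and 180.4 to 183.0, and the squamous sums 89870 to 97300 and 100800 to 102700, while the fibroblast sums overlapped (1301 to 1819 and 1226 to 1467). Their part in the HN5 results was not tested either. COL1A1, CD14 and PECAM1 were the only fibroblast, leukocyte and endothelial markers detected on every HN5 array. PTPRC and CD3E were undetected in both lines.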

How the data were processed

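RNA of HN5 and FaDu cells was hybridised to Illumina BeadChips, and groups were taken from the sample labels. The 38 members and all lists were chosen with earlier results of these data known. The authors deposited a scanner intensity for each probe, neither background-corrected nor normalized, with a column that holds 1 minus the detection p-value, as tested on the files. They also deposited log2 values made with lumi under R 2.11.0 (variance stabilization, background correction, quantile normalization). The order of these log2 values did not follow the probe identifiers beside them (Spearman correlation 0.010 to 0.019 with the same array's intensities) and was rebuilt from their ranks, and 4 values of HN5 miR-NC replicate 1 were missing. They served as an alternative.

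Intensities were processed within each line with neqc of limma 3.58.1 in R 4.3.3 (offset 16, quantile normalization). The HN5 arrays hold 48802 probes and the FaDu arrays 47230, and 27577 and 30112 of them had 1 gene in the platform annotation. A probe was kept where all arrays of 1 group or more had a detection p under 0.01, and the brightest probe stood for a gene. Tests were limma's moderated test with Benjamini-Hochberg adjustment over all genes of a line, without pairing. The script was tested on simulated data. For a probe undetected on every array of a group, a fold is a lower bound against the lowest detected signal of those arrays. This bound holds on the background-corrected scale only. Precision is limited by how few arrays there are, and the labels do not say how the replicates were grown, so p-values measure the spread between arrays.

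The difference between lines used probes shared by both array types, with the errors of both fits combined. Named genes are those past an adjusted p of 0.05 or the thresholds of the study in either line, the extremes of each list, HIF1A and GAPDH, and other pathway genes called with at least a 1.5-fold change. Of the 35 promoters, the first start listed per gene was used. Positions are those of RefSeq on GRCh38.p14, and the part of the transcript that a probe covers was not used here. Alternatives changed the background correction, normalization, source of values, filter, probe rule, test, variance prior, pairing and arrays and, added after seeing the data, the sign of the FaDu values.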

Additional observations from a re-analysis of the deposited data

Results flagged for a closer look

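The change with miR-7 differed between the lines for 4 of 34 members, by a test of the difference itself on a shared probe. Of all shared probes 15.4% differed, so the count of 4 is not read as a result about the members. Line and array type cannot be told apart here. The count was 0 without either HN5 miR-NC array, 1 with the replicate number as a block and 0 with the FaDu sign turned. ANGPTL4 differed by -1.53 (FaDu minus HN5, log2), with both HN5 miR-7 arrays above their controls and the FaDu arrays labelled miR-7 lower on that probe. BNIP3, the mitophagy receptor, differed by -0.95, and its groups did not overlap in either line, on opposite sides. HK2 differed by -0.97 and PDK3 by 0.90. The second FaDu probes of ANGPTL4 and PDK3 gave other values than the compared ones (0.04 and -0.10), and the FaDu values follow labels under which EGFR is higher with miR-7, opposite to the direction in HN5.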

How the results depend on the processing

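Members called in FaDu numbered 9 to 14 lower and 2 to 4 higher in the alternative fits, and 3 lower with the thresholds of the study. The shares over all genes in those alternative fits are not given here, so the changes in count are not read as results about the members. In HN5 the count stayed at 0 in both directions, except for 1 higher with the thresholds of the study and a range of 0 to 2 lower and 0 to 2 higher with 1 array left out. The 2 and 2 (LDHB and BNIP3L, ENO2 and ANGPTL4) came without HN5 miR-7 replicate 1, where replicate 2, the array that stands apart, is the lone miR-7 array and is assumed to vary like the others. LDHB then gave -2.83.

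The gap between HIF targets and enzymes in FaDu was -0.32 without background correction, -0.56 with median scaling, -0.26 with the authors' log2 values, -0.25 with transporters and flux regulators added to the targets, -0.24 with list means, and -0.49 to -0.35 with 1 array left out. In HN5 it turned to -0.056 with median scaling, -0.033 with no detection filter and -0.005 with the longer target list, and ran from -0.082 (without miR-7 replicate 1) to 0.146 (without miR-7 replicate 2) with 1 array left out. Median scaling moved the median of all HN5 genes from 0.04 to -0.15.

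The count of 4 members that differ between lines became 2 with median scaling and 1 with the replicate number as a block. It fell without either HN5 miR-NC array and rose without either HN5 miR-7 array. Each of these fits leaves 1 array in an HN5 group. The share over all probes in these settings is not given, so the changed counts are not read as results about the members. Same-numbered arrays did not deviate together (correlations of 0.057, -0.032 and 0.028 in FaDu), so the labels' numbers were not taken as pairs. With this replicate block the FaDu counts were 12 lower and 3 higher, SLC2A1 and PGAM1 had adjusted p of 0.0525 and 0.0778, and PFKFB3 had 0.0491. No named member changed sign where it was called, apart from the turned FaDu sign. With that sign turned, an alternative chosen after seeing the data, the FaDu counts were 3 lower and 12 higher, the gap was 0.456, and 0 members differed between lines. With the authors' log2 values, KDM3A gave -0.38, EGLN1 -0.16 and HIF1A -0.55, all still called, and BNIP3 (-0.57) was then the lowest named target. EGLN3 gave 0.27 with those values, on a probe that passed the filter only through the arrays labelled miR-7. A BeadChip block was not run, since the headers name no chips. Dim probes such as those of EGLN3, ANKRD37 and ANGPTL4 limit what can be said of their size of change.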
